A study of Mus musculus with 24 samples.

Results

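The 77 transcripts described here form M[4], a co-expression module of the mouse left ventricle whose transcripts were lower 24 h after a sham heart operation. They were taken by module label and transcript identifier from the study's own module list, out of 63758 transcripts in the count table, of which 8940 held enough reads to be tested. That list was built from the correlations between transcripts over the same 24 mice, so the values that placed a transcript in the module include every value given below, and the levels, folds and counts of the members are a description with no test. All 77 members passed the filter on low counts (a minimum of 10 counts in enough samples).

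The left ventricular myocardium of male C57BL/6J mice aged 8 to 12 weeks (C57BL/6 in the sample labels) was sequenced for mRNA, with 8 mice at each of 3 times and 1 library per mouse. In every mouse the chest was opened on the left under pentobarbital anesthesia with buprenorphine as the analgesic, and a suture was passed around the left anterior descending coronary artery and never tied. The 0 min group had the suture removed at once, the 45 min group after 45 min with the chest open, and the 24 h group had it removed after 45 min, the chest closed, and the heart taken 24 h later. All mice, the 0 min controls included, had the operation and the drugs, no artery was occluded, and no unoperated group is part of the comparison.

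An adult ventricle is mostly cardiomyocyte by mass, and its contraction rests on sarcomeres, on calcium released from and taken back into the sarcoplasmic reticulum, and on mitochondria that feed on fatty acids, lactate and pyruvate. Around the myocytes lie a basement membrane of type IV collagen and laminin, fibroblasts, vessels and a few resident leukocytes. Genes of the cardiac contractile and metabolic programs share regulators such as the MEF2 factors, and microRNAs encoded within introns of the myosin heavy chain genes accompany the transcription of their hosts.

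Total counts per library ranged from 9887957 to 14091629, and the number of transcripts with at least 1 count from 12972 to 18865. Levels are given as CPM, counts relative to the total of the library, adjusted by TMM factors that ranged from 0.717 to 1.30. They compare mice for 1 transcript and are not divided by transcript length, so they do not rank the transcripts. The ventricle was checked against cardiomyocyte markers. Gene symbols were known only for transcripts the study had chosen as changing over time in these mice. Of the 10 markers, 3 could be identified there (Actc1, Actn2 and Mybpc3). Summed, they reached 14580 to 22216 CPM in the 0 min mice, 15477 to 27485 CPM in the 45 min mice and 5468 to 10204 CPM in the 24 h mice, so they were abundant in every library. In bulk tissue, fewer cells of a type and less RNA of a transcript per cell cannot be told apart.

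A member microRNA gene and a member myosin gene are shown first, because both carry a microRNA of the same family. Mir208b lies at chr14:54975700-54975776 on the minus strand (GRCm38), within an intron of Myh7, the slow myosin heavy chain gene. The member Myh7b, a second slow-type myosin heavy chain gene at chr2:155611212-155634307 on the plus strand, holds Mir499 in an intron at chr2:155622880-155622958. The mature strands below are from RefSeq (GRCm38.p6), 5′ to 3′, with the seed, bases 2 to 8, in capitals.
mmu-miR-208b-3p: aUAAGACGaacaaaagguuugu
mmu-miR-499-5p: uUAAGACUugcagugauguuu
The 2 seeds share their first 6 of 7 bases. The libraries were made from mRNA and the Mir208b value counts reads over the hairpin locus, so it is not a level of the mature microRNA.

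RefSeq promoter windows (250 bases before to 50 after the start, GRCm38.p6) were found for 55 of the 77 member symbols, in 61 windows. Their median G+C content was 58.7%, beside 52.7% over all 32851 windows. The MEF2 motif, searched on both strands by its consensus, was present in 8 of the 61 member windows (13.1%) and in 3.19% of all windows. The CArG box was present in 0 of the 61 member windows and in 1.63% of all windows, too small a share for 61 windows to show a difference. The member genes with a MEF2 match were Mylk4, Lrrc14b, Lrrc39, Tnni3k, Rgs7bp, Mrpl1, Ppfibp2 and C130080G10Rik, so 4 of them belong to the contraction group described next. Upstream stretches of 4 of them are printed on the strand of the gene, with the match in capitals, as those in which it lay nearest before the start. Their places were chr13:32784018-32784107 (Mylk4, minus strand), chr13:74364001-74364071 (Lrrc14b, minus strand), chr3:116562924-116562982 (Lrrc39, plus strand) and chr13:105054960-105055049 (Rgs7bp, minus strand).
Mylk4: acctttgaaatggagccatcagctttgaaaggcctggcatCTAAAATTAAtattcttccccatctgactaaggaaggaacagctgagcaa
Lrrc14b: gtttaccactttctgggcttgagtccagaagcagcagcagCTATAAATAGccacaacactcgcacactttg
Lrrc39: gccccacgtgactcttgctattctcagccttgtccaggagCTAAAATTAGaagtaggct
Rgs7bp: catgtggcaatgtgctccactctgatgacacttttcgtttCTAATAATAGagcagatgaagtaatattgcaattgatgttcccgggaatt
The match began 103 bases before the start in Mylk4, 31 in Lrrc14b, 19 in Lrrc39 and 79 in Rgs7bp, and farther away, 177, 207 and 244 bases before it, in C130080G10Rik, Ppfibp2 and Mrpl1, while in Tnni3k it was not wholly upstream. The other letters searched, again on both strands, had shares of member windows beside all windows of 23% and 25.4% for GATAA, 14.8% and 14.7% for CATTCC, 19.7% and 16.3% for CAGCTG, 4.92% and 4.72% for AAGGTCA, 18% and 19.6% for ACGTG, and 3.28% and 8.3% for TTCNNNGAA. A match describes letters in a window and is not evidence of binding.

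At 24 h against 0 min, 57 of the 77 members were lower with an adjusted p under 0.05 in edgeR's quasi-likelihood test, 0 were higher and 20 did not pass. Over all 8940 transcripts tested, 3.24% were called lower and 4.44% higher. Nothing is read from this contrast, since the module was chosen on it. All 77 fitted log2 fold changes were negative, from -2.41 for Fat3 to -0.08 for Hsd17b4, with a median of -0.70, while the median over all transcripts tested was 0.003. In 17 members every 24 h mouse lay below every 0 min mouse, which held for 0.649% of all transcripts tested. No member was higher at an unadjusted p under 0.05 either. DESeq2 called 66 members lower and 0 higher, beside 366 lower and 532 higher of all 8940 tested. Limma-voom called 56 members lower and 0 higher, beside 307 lower and 386 higher of all tested.

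At 45 min against 0 min, edgeR called 0 members lower and 0 higher, beside 0.246% of all transcripts tested called lower and 0.481% called higher. DESeq2 and limma-voom also called 0 members either way, beside 30 and 20 of all 8940 tested called lower and 79 and 36 higher. No member had every 45 min mouse below every 0 min mouse, which 0.0671% of all tested had. At an unadjusted p under 0.05 there were 0 members lower and 1 higher, Lmod2, beside 2.84% of all tested lower and 2.94% higher. The median log2 fold change of the members was -0.09, and 55 of the 77 were negative, but without the 45 min mice 6, 7 and 8, whose libraries had the fewest detected transcripts of their group, only 25 were. At 24 h against 45 min, 50 of 77 members were called lower (4.51% of all tested) and 0 higher (4.59%), with a median log2 fold change of -0.60. In 8 members every 24 h mouse lay below every 45 min mouse, beside 0.716% of all tested. Here too nothing is read from the contrast, since the module was chosen on the 45 min mice as well.

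**Figure D1:**
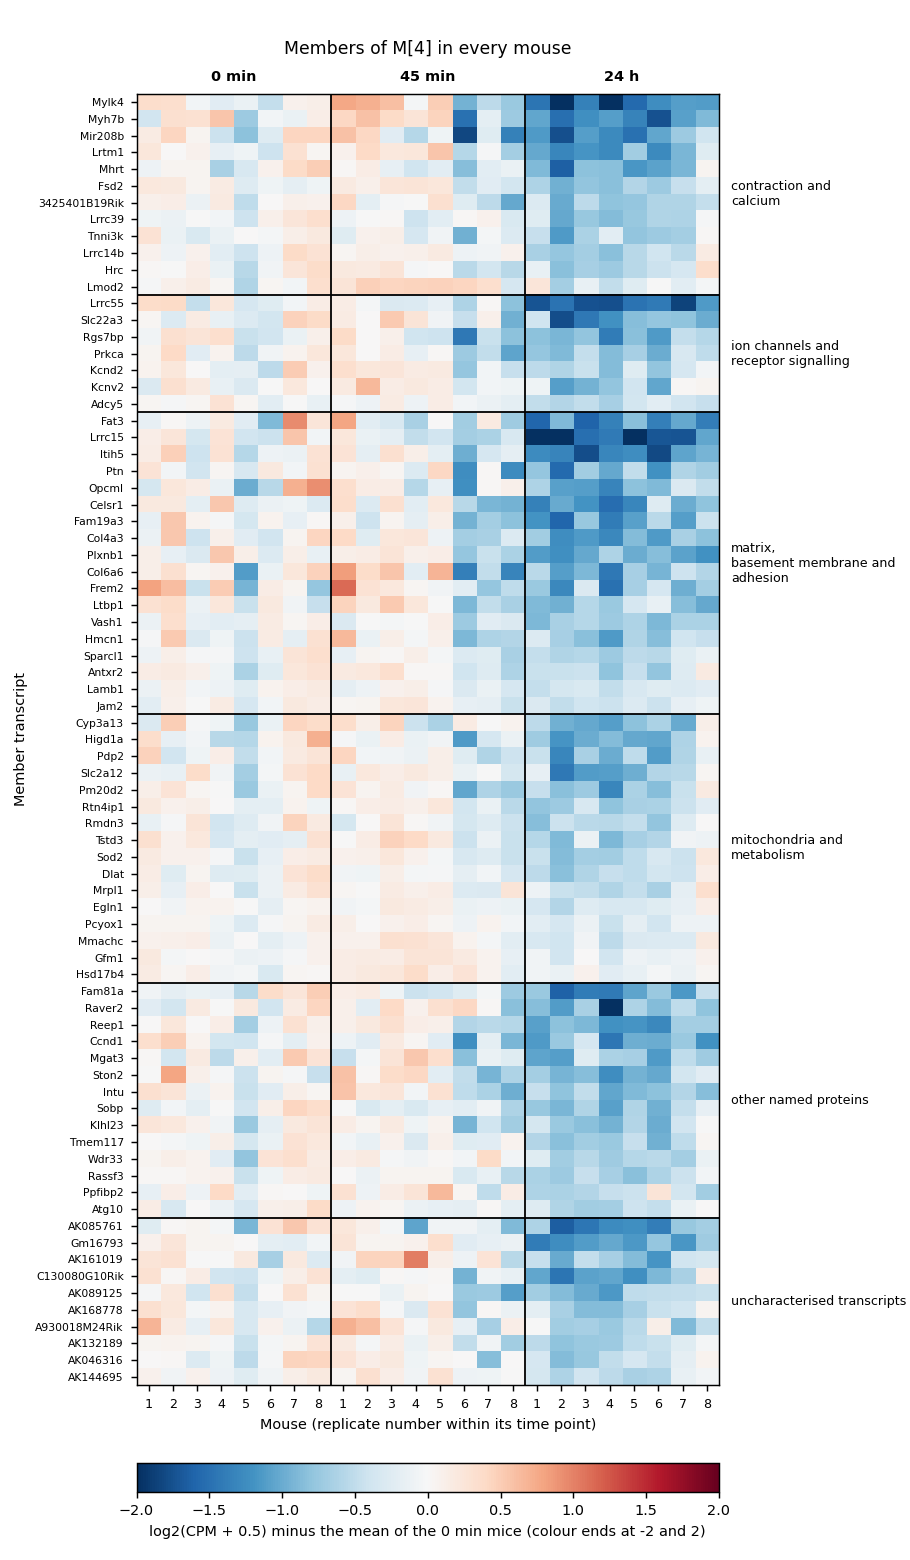
Each row is 1 of the 77 members, grouped by function and ordered by fold change, and each column is 1 of the 24 mice. Colour gives log2(CPM + 0.5) minus the mean of the 0 min mice. The 24 h columns are mostly blue, mouse 8 is pale in the mitochondrial rows, and the 45 min mice 6 and 8 are bluer than the other 45 min mice.

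Contraction and calcium handling counted 12 members, of which 10 were called lower at 24 h and 2 were not, with a median log2 fold change of -0.64. Mylk4, a kinase of the myosin light chain kinase family (chr13:32700834-32783954, minus strand), had the strongest decrease of the group. The mice had 161 to 288 CPM (median 228) at 0 min, 116 to 384 (268) at 45 min and 52.0 to 105 (84.6) at 24 h. Every 24 h mouse lay below every mouse of both earlier times, and the fold change from 0 min to 24 h was -1.48 ± 0.23 (log2, SE, n = 8 per time). Myh7b had 68.3 to 165 CPM (median 116) at 0 min, 39.8 to 170 (141) at 45 min and 33.2 to 60.6 (50.02) at 24 h, a log2 fold change of -1.28 ± 0.23. Its 24 h mice did not overlap the 0 min mice but reached above the lowest of the 45 min mice, at 39.8 CPM.

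The Myh7 locus contributed 2 further members that do not overlap each other. Mir208b had 6.85 to 17.03 CPM (median 13.5) at 0 min, 3.19 to 19.05 (10.5) at 45 min and 3.35 to 9.31 (5.47) at 24 h, a log2 fold change of -1.19 ± 0.29 with 6 of 8 mice below the lowest 0 min mouse. Mhrt, the long noncoding RNA antisense to Myh7 (chr14:54968678-54974349, plus strand), had 31.3 to 69.9 CPM (51.3) at 0 min, 27.3 to 55.1 (43.5) at 45 min and 15.6 to 51.6 (26.4) at 24 h. Its log2 fold change was -0.88 ± 0.19, and mouse 8 alone at 24 h kept a level within the range of the 0 min mice. The strand setting of the read counting is not given in the sources used here, so reads of Mhrt and of Myh7 on the opposite strand cannot be told apart. Of the 69 members placed in GENCODE M21, 34 overlap a gene on the opposite strand and share this limit.

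Proteins of the Z-disc, the M-band and the sarcoplasmic reticulum formed the rest of the group. Fsd2, a fibronectin and SPRY domain protein of the sarcoplasmic reticulum region, had 283 to 391 CPM (median 335) at 0 min, 242 to 405 (375) at 45 min and 173 to 295 (213) at 24 h, with 7 of 8 mice below the 0 min range and a log2 fold change of -0.64 ± 0.13. 3425401B19Rik, which encodes the Z-disc protein CEFIP, had 40.01 to 64.6 CPM (60.9), 27.9 to 75.9 (53.0) and 28.1 to 46.9 (37.3) at the 3 times and the same log2 fold change, -0.64 ± 0.16. Lrrc39, a leucine-rich repeat protein of the M-band, had 51.7 to 87.1 CPM (67.4), 51.3 to 73.1 (66.0) and 33.7 to 67.8 (42.5), a log2 fold change of -0.60 ± 0.14. The middle of each distribution moved while the highest 24 h mouse still overlapped the 0 min mice. Tnni3k, a kinase that binds cardiac troponin I, had 6.05 to 9.33 CPM (7.502) at 0 min, 3.64 to 8.23 (6.77) at 45 min and 3.17 to 7.69 (4.64) at 24 h, a log2 fold change of -0.59 ± 0.17. Lrtm1 and Lrrc14b, both leucine-rich repeat proteins, went from medians of 254 and 48.3 CPM at 0 min through 278 and 51.5 at 45 min to 117 and 31.8 at 24 h, with log2 fold changes of -0.96 ± 0.18 and -0.53 ± 0.14.

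The 2 members of the group that were not called were among its most deeply counted. Hrc, the histidine-rich calcium binding protein of the sarcoplasmic reticulum, had 848 to 1620 CPM (median 1257) at 0 min, 848 to 1495 (1247) at 45 min and 701 to 1593 (889) at 24 h, a log2 fold change of -0.39 ± 0.17. Lmod2, leiomodin 2, which nucleates actin at the pointed ends of thin filaments, had 436 to 841 CPM (682) at 0 min, 527 to 928 (896) at 45 min and 417 to 782 (586) at 24 h. Against 0 min the log2 fold change was -0.20 ± 0.14 after 24 h and 0.31 ± 0.14 after 45 min, and only against 45 min was the 24 h level called lower (-0.51 ± 0.14). The cardiomyocyte markers moved unequally beside this group, with log2 fold changes at 24 h of -1.38 ± 0.18 for Actc1 (cardiac actin) and -0.81 ± 0.17 for Mybpc3 (myosin binding protein C), both called, and -0.20 ± 0.11 for Actn2 (alpha-actinin 2), not called. Their part in the result was not tested.

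Ion channels and receptor signalling counted 7 members, of which 5 were called lower, with a median log2 fold change of -0.70 and no overlap between 24 h and 0 min in 4 of them. Lrrc55, an auxiliary subunit of large conductance calcium-activated potassium channels (chr2:85162334-85197197, minus strand), had 1.56 to 3.24 CPM (median 2.46) at 0 min, 1.12 to 2.68 (1.96) at 45 min and 0.292 to 0.809 (0.445) at 24 h. The log2 fold change was -2.34 ± 0.24, and these levels rest on 17 to 40 counts per mouse at 0 min and 4 to 10 at 24 h. Every 24 h mouse lay below every mouse of the earlier times. Kcnd2, the Kv4.2 subunit of the transient outward current, had 25.8 to 53.4 CPM (38.3), 21.5 to 47.0 (42.1) and 20.1 to 35.7 (26.6) and was not called, with a log2 fold change of -0.50 ± 0.16. Kcnv2, a modifying subunit of Kv2 channels, had 14.8 to 22.8 CPM (18.2), 13.9 to 28.7 (20.1) and 8.20 to 18.9 (12.1) and was not called against 0 min either, at -0.49 ± 0.18.

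Of the 4 members of catecholamine, cAMP and kinase signalling, 3 had no overlap between 0 min and 24 h, as had 1 of the 3 potassium channel subunits. Adcy5, a main adenylyl cyclase of the heart, had 122 to 173 CPM (median 143) at 0 min, 124 to 158 (134) at 45 min and 89.2 to 122 (102) at 24 h, so that a modest log2 fold change of -0.46 ± 0.10 still left no overlap with either earlier time. Slc22a3, the organic cation transporter OCT3 that takes up catecholamines outside neurons, had 7.98 to 14.6 CPM (10.1), 5.15 to 15.3 (10.9) and 2.73 to 7.82 (5.31), a log2 fold change of -1.07 ± 0.21 with no overlap between 0 min and 24 h. Rgs7bp, which anchors regulators of G protein signalling at the membrane, had 7.04 to 12.4 CPM (9.84), 3.30 to 12.9 (7.22) and 3.37 to 6.84 (5.25), and its log2 fold change was -0.93 ± 0.21. Here too the 24 h mice all lay below the 0 min mice. Prkca, protein kinase C alpha, had 35.8 to 68.6 CPM (53.9), 24.7 to 60.3 (49.1) and 25.6 to 41.3 (31.3), with 5 of 8 mice below the 0 min range and a log2 fold change of -0.70 ± 0.17.

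**Figure D2:**
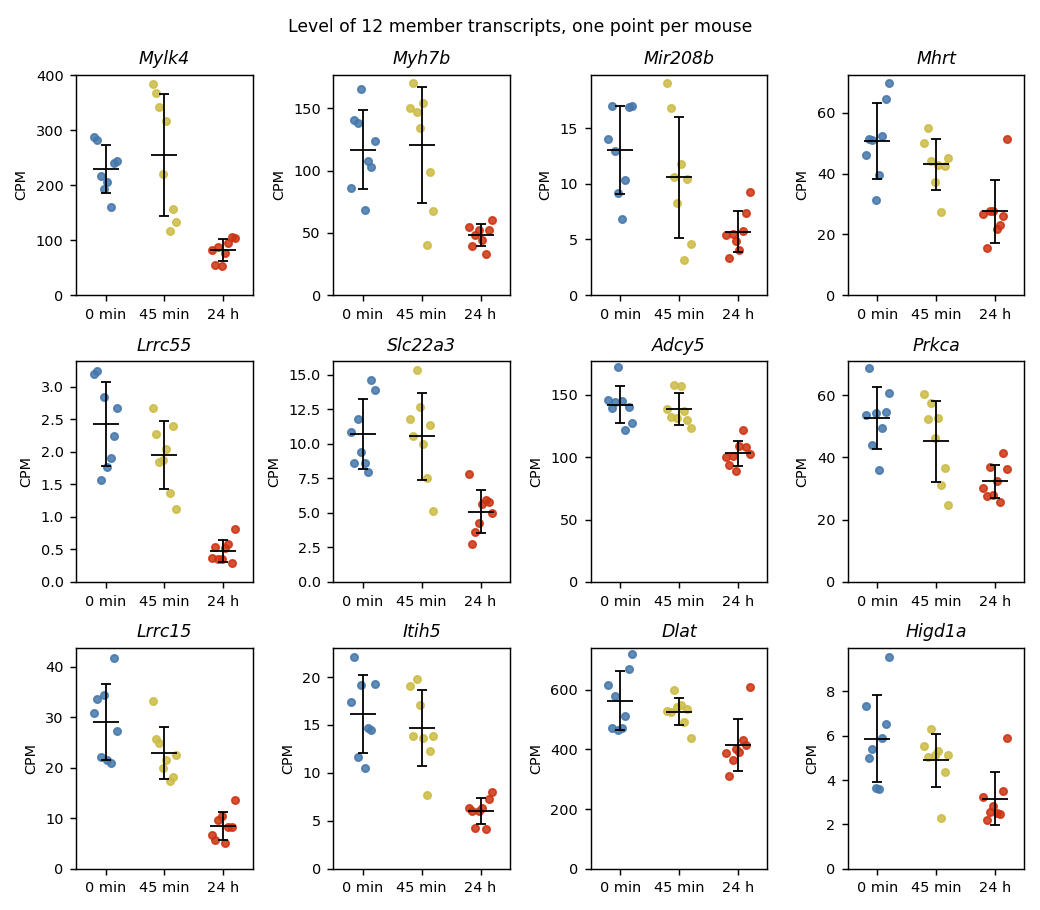
Each point is the CPM of 1 mouse for 12 members, with 8 mice per time, and the black line and bar give the mean and SD. All axes start at 0. For Mylk4, Lrrc55 and Lrrc15 the 24 h points lie below all earlier points, whereas for Dlat, Higd1a and Mhrt 1 mouse at 24 h stays among the 0 min points.

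Matrix, basement membrane and adhesion was the largest group, with 18 members, 15 called lower, 7 without overlap and a median log2 fold change of -0.99. Lrrc15, a leucine-rich repeat membrane protein known from activated fibroblasts (chr16:30269302-30283256, minus strand), had 20.99 to 41.9 CPM (median 29.2) at 0 min, 17.4 to 33.2 (22.01) at 45 min and 5.02 to 13.6 (8.23) at 24 h. This is a log2 fold change of -1.79 ± 0.20, with all 24 h mice below all mice of both earlier times. Itih5, a secreted inter-alpha-trypsin inhibitor heavy chain that binds hyaluronan, had 10.5 to 22.1 CPM (16.02), 7.74 to 19.8 (13.9) and 4.14 to 8.01 (6.17), a log2 fold change of -1.42 ± 0.19 without overlap between 0 min and 24 h. Fat3, a giant cadherin, had the strongest fitted change of all members, -2.41 ± 0.42, on very few reads. Its level was 0.434 to 2.83 CPM (1.17), 0.559 to 2.48 (0.938) and 0.0716 to 0.462 (0.169), with 5 to 29 counts per mouse at 0 min and 1 to 7 at 24 h. Ptn, the heparin-binding growth factor pleiotrophin, was as thinly counted, with 0.825 to 1.63 CPM (1.23), 0.224 to 1.80 (1.26) and 0.0882 to 0.726 (0.537), a log2 fold change of -1.39 ± 0.36 and no overlap between 0 min and 24 h.

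Basement membrane and matrix proteins proper were mostly lower. The type IV collagen chain Col4a3 had a log2 fold change of -1.07 ± 0.19 without overlap, from a median of 9.27 CPM at 0 min to 4.50 at 24 h. The matrix proteins Frem2 (-0.92 ± 0.28) and hemicentin 1, Hmcn1 (-0.67 ± 0.19), the latent TGF-beta binding protein Ltbp1 (-0.75 ± 0.21), the matricellular Sparcl1 (-0.48 ± 0.13) and the laminin chain Lamb1 (-0.34 ± 0.10) were called lower as well. Of the type VI collagen pair, the chain Col6a6 was at -0.94 ± 0.30 and the collagen VI receptor Antxr2 at -0.43 ± 0.16, and neither was called. Col6a6 was among the most variable members, with a range of 1.82 to 10.2 CPM over the 45 min mice.

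Guidance, adhesion and secreted factors made up the remainder. The semaphorin receptor Plxnb1 fell from 82.3 to 147 CPM at 0 min to 43.1 to 65.3 CPM at 24 h (-1.03 ± 0.16), and Vash1, vasohibin 1, a regulator of vessel growth and tubulin, from 57.2 to 83.1 CPM to 35.2 to 44.3 CPM (-0.72 ± 0.12). Neither overlapped between these times, and Vash1 was one of the least variable members at 24 h. The secreted chemokine-like Fam19a3 (-1.07 ± 0.21), the planar polarity cadherin Celsr1 (-1.14 ± 0.23) and the membrane-anchored adhesion protein Opcml (-1.17 ± 0.31) were also called. Jam2, a junctional adhesion molecule, was not called at -0.33 ± 0.11. Of the fibroblast markers 2 of 7 could be identified, Col1a2 (0.47 ± 0.16, not called) and Col3a1 (0.75 ± 0.22, called higher), with a summed level of 413 to 704 CPM at 0 min and 377 to 1217 CPM at 24 h. Their part in the result was not tested.

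Mitochondria and metabolism counted 16 members, of which 7 were called lower and 9 were not, with the median nearest to 0 of the 6 groups, -0.47, and 1 member without overlap. Mouse 8 of the 24 h group was the highest of its time in 13 of the 16. Leaving it out raised the called members from 7 to 14 of 16. Over all transcripts tested the lower calls rose as well, from 290 of 8940 to 389 of 9075. Dlat and Pdp2 act on pyruvate dehydrogenase, the gate from glycolysis into the citric acid cycle. Dlat, the E2 subunit (chr9:50634633-50659780, minus strand), had 466 to 718 CPM (median 545) at 0 min, 440 to 600 (532) at 45 min and 310 to 609 (397) at 24 h, a log2 fold change of -0.44 ± 0.13, with 7 of 8 mice below every 0 min mouse and mouse 8 at 609 CPM. Pdp2, the phosphatase that activates the complex (chr8:104591451-104599026, plus strand), had 9.78 to 19.5 CPM (14.5), 9.07 to 19.05 (13.1) and 5.38 to 12.6 (8.90), a log2 fold change of -0.74 ± 0.18. The catalytic and the activating component were thus both lower, with the larger fold in the phosphatase and a test of that difference not made.

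The strongest changes of this group were in Cyp3a13 and Higd1a, with Pdp2 and Slc2a12 next. Cyp3a13, a cytochrome P450 of the endoplasmic reticulum, had 0.783 to 2.58 CPM (median 1.60), 0.900 to 2.48 (1.82) and 0.519 to 1.86 (0.671), a log2 fold change of -1.04 ± 0.29 on 6 to 31 counts per mouse over the 0 min and 24 h mice. Higd1a, a hypoxia-inducible protein of the respiratory chain, had 3.62 to 9.57 CPM (5.65), 2.28 to 6.31 (5.13) and 2.204 to 5.91 (2.72), at -0.89 ± 0.23. Slc2a12, the glucose transporter GLUT12, had 6.26 to 13.9 CPM (9.97), 8.06 to 12.1 (10.8) and 3.53 to 10.7 (5.90), at -0.73 ± 0.20. In Cyp3a13, Higd1a and Slc2a12 the highest 24 h mouse was within the 0 min range. Rtn4ip1, a mitochondrial oxidoreductase (-0.57 ± 0.12), was the member of this group without overlap, and Rmdn3, a tether between mitochondria and the endoplasmic reticulum, was called at -0.50 ± 0.15.

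The members that were not called included the superoxide dismutase of the matrix, Sod2 (-0.45 ± 0.14), the oxygen-sensing prolyl hydroxylase Egln1 (-0.25 ± 0.10), the cobalamin enzyme Mmachc (-0.23 ± 0.11), and both members of the mitochondrial translation machinery, the ribosomal protein Mrpl1 (-0.32 ± 0.15) and the elongation factor Gfm1 (-0.13 ± 0.10). The same held for Pm20d2 (-0.61 ± 0.20), Tstd3 (-0.49 ± 0.17), the lysosomal prenylcysteine oxidase Pcyox1 (-0.24 ± 0.09) and Hsd17b4, a peroxisomal enzyme of fatty acid oxidation (-0.08 ± 0.10). Several of these are not mitochondrial, and the name of the group covers them only loosely. Hsd17b4 had 90.9 to 127 CPM at 0 min and 96.01 to 119 CPM at 24 h, with no 24 h mouse below the 0 min range, and Gfm1 and Hsd17b4 had positive fold changes at 45 min (0.13 ± 0.10 and 0.15 ± 0.10).

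Of 14 other named proteins, 13 were called lower, with a median log2 fold change of -0.74. Fam81a had 8.32 to 17.7 CPM (median 11.5), 7.27 to 13.9 (11.01) and 3.70 to 8.82 (5.53), at -1.12 ± 0.19. Raver2, an RNA binding protein, had 3.12 to 5.84 CPM (4.49), 2.13 to 5.81 (4.54) and 0.346 to 2.81 (2.14), at -1.06 ± 0.26 with no overlap between 0 min and 24 h. Reep1, which shapes the endoplasmic reticulum, had 19.2 to 38.3 CPM (32.2), 20.4 to 38.6 (33.2) and 12.4 to 19.2 (15.3), at -1.01 ± 0.16. Cyclin D1, Ccnd1, which drives entry into the cell cycle, had 37.5 to 69.5 CPM (50.3), 20.7 to 55.9 (42.7) and 17.9 to 39.0 (24.7), at -0.95 ± 0.19, and 7 of 8 mice at 24 h lay below the 0 min range. Also called were Mgat3, a glycosyltransferase (-0.84 ± 0.21), Ston2, an endocytic adaptor (-0.84 ± 0.22), Intu, a ciliary planar polarity protein (-0.76 ± 0.18), Sobp (-0.71 ± 0.14), Klhl23 (-0.61 ± 0.18), Tmem117 (-0.60 ± 0.14), Wdr33, a subunit of the polyadenylation machinery (-0.57 ± 0.15), Rassf3 (-0.55 ± 0.12) and the autophagy enzyme Atg10 (-0.42 ± 0.13). The exception was Ppfibp2, a liprin, at -0.45 ± 0.16, although 7 of its 8 mice at 24 h lay below the 0 min range.

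The last 10 members are noncoding or uncharacterised transcripts, of which 7 were called lower, with a median log2 fold change of -0.63. AK085761 had 5.58 to 16.2 CPM (median 11.3), 5.03 to 12.99 (10.5) and 3.17 to 6.95 (4.37), at -1.21 ± 0.22. Gm16793, a noncoding gene that starts next to a neighbour on the opposite strand (chr8:35582503-35588972, minus strand), had 10.4 to 14.4 CPM (12.4), 10.2 to 15.4 (12.6) and 4.27 to 7.203 (5.26), at -1.13 ± 0.13. Its SD between mice on the log2(CPM + 0.5) scale was 0.15, 0.20 and 0.23 at the 3 times, below the member medians of 0.28, 0.34 and 0.31. The 24 h mice of Gm16793 lay below all mice of both earlier times. AK161019 had 0.694 to 1.83 CPM (1.52), 0.783 to 3.32 (1.66) and 0.331 to 0.971 (0.776), at -0.998 ± 0.28, and C130080G10Rik had 10.96 to 18.3 CPM (15.48), 7.40 to 15.03 (13.7) and 5.02 to 16.3 (6.90), at -0.89 ± 0.20. Of the others, AK089125 (-0.74 ± 0.18), AK132189 (-0.51 ± 0.15) and AK144695 (-0.41 ± 0.11) were called, and AK168778 (-0.52 ± 0.17), A930018M24Rik (-0.52 ± 0.20) and AK046316 (-0.46 ± 0.17) were not.

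**Figure D3:**
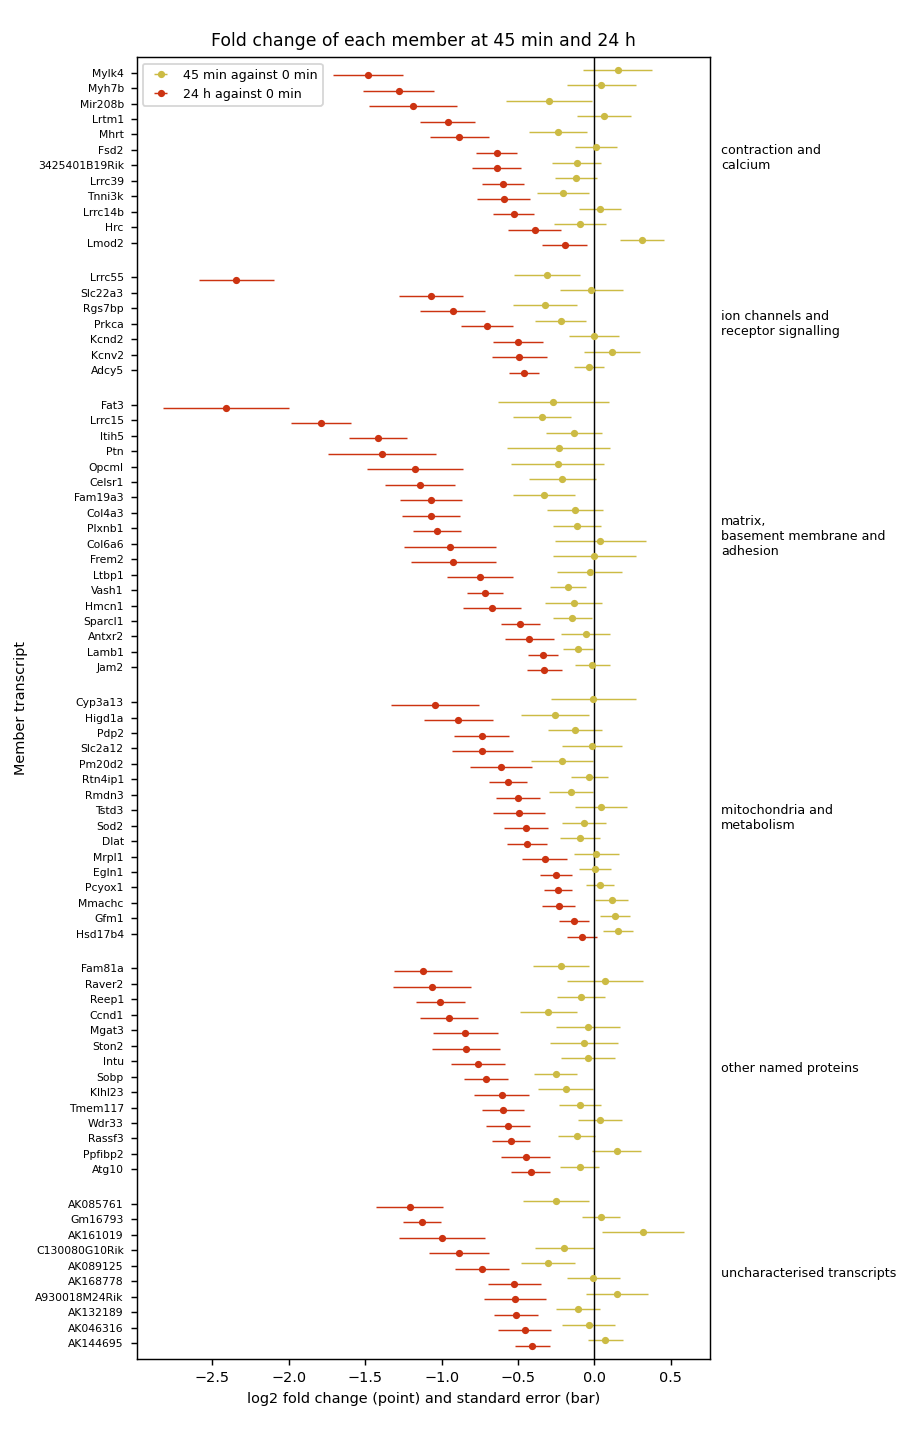
Points are the log2 fold changes of the 77 members at 45 min (yellow) and 24 h (red) against 0 min, and bars are standard errors, with members grouped by function. All red points lie left of 0, from -2.41 to -0.08, and the yellow points scatter between -0.34 and 0.32.

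How much the members differed between mice was summarised per mouse as the mean over members of log2(CPM + 0.5) minus that member's mean over the 0 min mice. The labels do not say who operated on a mouse or in which pool its library was made, so neither could be set beside the differences between mice. This mean came to 0 ± 0.18 (SD, 8 mice) in the 0 min group, -0.09 ± 0.27 in the 45 min group and -0.71 ± 0.20 in the 24 h group, the last being 61.2% of the 0 min level. The 24 h mice ranged from -0.97 (mouse 2) and -0.94 (mouse 4) to -0.33 (mouse 8). Mouse 8 was the highest of its group in 49 of the 77 members, and mice 4 and 2 were the lowest in 30 and 26. At 0 min, mouse 5 (-0.38) was the lowest in 48 members, and the other 7 mice lay between -0.11 and 0.17. The highest 24 h mouse thus lay above the lowest 0 min mouse.

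The SD was largest among the 45 min mice. Mice 6, 7 and 8 had means of -0.49, -0.24 and -0.47, and the other 5 lay between -0.02 and 0.17. Mice 6 and 8 were the lowest of their group in 32 and 33 members. The same 3 libraries had the fewest detected transcripts at 45 min, 12972 to 14353 against 17114 to 18109 in the others. At 0 min, mouse 7 had 14597 detected transcripts and a mean of 0.15, while mouse 5 had 14778 and -0.38. With the number of detected transcripts as a covariate, 70 of the 77 members were called lower at 24 h against 0 min, and over all 8940 transcripts tested the calls rose as well, from 290 lower and 397 higher to 466 lower and 578 higher.

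In some functional groups the 24 h and 0 min mice overlapped and in others they did not. The matrix group had means of -0.64 to -1.07 over the 24 h mice (-0.85 ± 0.15, SD, n = 8), and the lowest 0 min mouse was at -0.44. The channel and signalling group had -1.08 to -0.52 (-0.80 ± 0.21), and its lowest 0 min mouse was at -0.29. In both groups every 24 h mouse lay below every 0 min mouse. In the contraction group the 24 h mice ran from -1.22 in mouse 2 to -0.23 in mouse 8 (-0.78 ± 0.28), and in the mitochondrial group from -0.73 in mouse 2 to 0.06 in mouse 8 (-0.46 ± 0.25). In 12 of the 16 mitochondrial members mouse 8 lay above the 0 min mean, and it was the highest 24 h mouse in 13 of them, while in the matrix group it lay below the 0 min mean in 17 of 18 members. The other named proteins (-0.72 ± 0.20) did not overlap either, with the highest 24 h mouse at -0.43 and the lowest 0 min mouse at -0.39. The uncharacterised transcripts (-0.68 ± 0.23) did overlap, with these mice at -0.25 and -0.34.

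**Figure D4:**
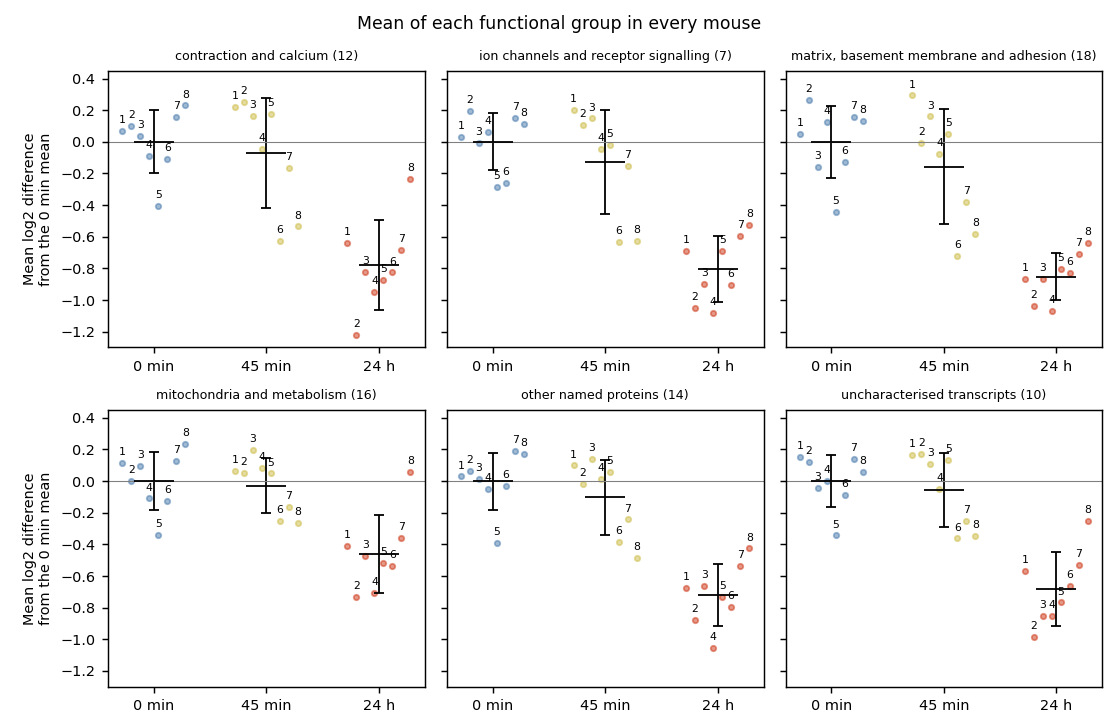
Each numbered point is a mouse, its number the replicate number within its time, and its height the mean over a group's members of log2(CPM + 0.5) minus the 0 min mean. Black lines and bars are means and SD over 8 mice, and the number of members is in each title. Mouse 8 at 24 h stands above the others in the contraction and mitochondrial panels (-0.23 and 0.06), and mouse 5 at 0 min below the others in most panels.

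Leukocyte markers differed between the same mice. Summed neutrophil markers (5 of 8 identified) were 2.41 to 14.7 CPM at 0 min and 97.9 to 547 CPM at 24 h, and summed macrophage markers (6 of 9) were 37.0 to 59.4 and 72.2 to 219 CPM. Mouse 8 had the lowest 24 h value of both sums, 97.9 CPM against 195 to 547 CPM in the other mice for neutrophils, and mouse 5 at 0 min had the highest neutrophil sum of its group, 14.7 CPM. The sums did not order all mice as the members did. Mouse 4 at 24 h, with the second lowest mean of the members, also had the second lowest neutrophil sum of its group (195 CPM) and a macrophage sum of 109 CPM. At 45 min the neutrophil sums ran from 5.36 to 31.8 CPM and the macrophage sums from 34.0 to 68.3 CPM. Mice 6, 7 and 8, low in the members, had neutrophil sums of 9.68, 31.8 and 17.7 CPM. Mouse 7 thus had the highest and mouse 8 the second highest of the group, and mouse 6 lay among the other mice. The macrophage sums of mice 6, 7 and 8 were 38.0, 34.0 and 45.0 CPM, below the 45.6 to 68.3 CPM of the other mice. All 5 neutrophil and all 6 macrophage transcripts tested were called higher at 24 h. A marker could be identified only among transcripts the study had chosen as changing over time in these mice. That such transcripts were called was thus largely fixed beforehand, and an unidentified marker says nothing about its cells. Mesothelial markers (6 of 9) rose from 1.99 to 9.09 CPM at 0 min to 7.14 to 52.4 CPM at 24 h, with 4 of 5 tested transcripts called, and endothelial and lymphocyte markers were not identified among the named transcripts. The part of these cells in the decrease of the members was not tested.

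Without mouse 8 of the 24 h group, 72 of 77 members were called lower against 0 min, among them all 57 called before, and 74 against 45 min. Over all 9075 transcripts tested in that fit, 389 were called lower and 399 higher against 0 min, and 411 lower and 386 higher against 45 min. The 5 that were still not called against 0 min were Hsd17b4, Gfm1, Lmod2, Ppfibp2 and A930018M24Rik. Without mouse 8 of the 24 h group and mouse 5 of the 0 min group together, 70 were called against 0 min, beside 321 lower and 465 higher of all 9037 tested.

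Within a time, the median SD of a member between mice stood at 0.28 for the 0 min mice, 0.34 for the 45 min mice and 0.31 for the 24 h mice on the log2(CPM + 0.5) scale, beside 0.38, 0.47 and 0.37 over all transcripts tested. The members came from transcripts the study had chosen as changing over time in these mice. That choice favours a small spread within a time, so nothing is read from this difference. The most variable members at 0 min were Frem2 (SD 0.65) and Opcml (0.64), and at 45 min Col6a6 (0.88) and Mir208b (0.82). Pcyox1 (0.13, 0.08 and 0.13 at the 3 times) and Adcy5 (0.15, 0.13 and 0.14) were steady at all times. Over the 24 libraries the mean correlation between 2 members was 0.69, and the correlation of a member with the mean of all members ran from 0.55 for Hsd17b4 to 0.95 for Reep1, Fsd2 and, at 0.94, Mylk4, as a module built on correlation requires. Outside the module, the named transcript nearest to the mean was Lmod3, a leiomodin placed in module M[2], at 0.85. The mean log2 difference of M[2] was -0.66 ± 0.15 at 24 h and 0.05 ± 0.22 at 45 min, and that of M[3] was -0.80 ± 0.37 and 0.12 ± 0.59. Between mice, neither module followed the members at 0 and 45 min. At 45 min the means of M[3] in mice 6, 7 and 8 were 0.77, 0.62 and 1.05, where those of the members were negative. In the other 5 mice they were -0.43 to -0.20. The means of M[2] were 0.36, 0.20 and 0.34 in mice 6, 7 and 8 and -0.18 to -0.03 in the other 5. At 0 min both modules were highest in mouse 5 (0.65 for M[3], 0.27 for M[2]), the mouse in which the members were lowest. At 24 h M[3] stood at 0.04 in mouse 4 and between -1.07 and -0.67 in the other 7. M[2] was then highest in mouse 4 (-0.40) and, like the members, lowest in mouse 2 (-0.87).

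Other genes of the members' pathways could be followed only where the study's tables give a symbol, and those tables list transcripts chosen on these samples, so their directions are not independent. Among all 1096 such transcripts that were tested, 23% were called lower and 33.3% higher at 24 h. Of the 6 pyruvate dehydrogenase and citric acid cycle transcripts outside the module, 2 were called lower, the E1 subunit Pdhb (-0.50 ± 0.12) and the succinate dehydrogenase subunit Sdhd (-0.56 ± 0.13), and 1 higher, the inhibiting kinase Pdk3 (0.83 ± 0.23). In mitochondrial translation 7 of 12 were called lower and 0 higher, among them Mrpl18 (-0.61 ± 0.13) and Taco1 (-0.66 ± 0.13). Sarcomere transcripts outside the module went both ways, 5 of 11 lower and 4 higher, with Lmod3 at -1.24 ± 0.15 and the stress-responsive ankyrin repeat protein Ankrd1 at 1.58 ± 0.27. Of 4 sarcoplasmic reticulum transcripts, 2 were lower, including calsequestrin 1, Casq1 (-1.203 ± 0.28), and 1 higher, the cation channel Tmem38b (1.18 ± 0.15).

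Channel, signalling and matrix genes outside the module were likewise mixed. Of 8 potassium and pacemaker channel transcripts, 3 were lower, the pacemaker channels Hcn2 (-1.196 ± 0.23) and Hcn4 (-0.91 ± 0.22) and the ATP-sensitive channel pore Kcnj11 (-0.47 ± 0.10), and 2 higher. In adrenergic and cAMP signalling, 2 of 8 were lower, Akap5 (-1.80 ± 0.40) and Crhr2 (-0.94 ± 0.20), and 1 higher, the receptor kinase Grk5 (1.08 ± 0.15), while the beta-1 adrenergic receptor Adrb1 was at -0.20 ± 0.16 and not called. Basement membrane and collagen transcripts outside the module were called lower in 4 of 13 and higher in 7 of 13, the latter including the fibrillar collagen chains Col3a1 (0.75 ± 0.22) and Col5a2 (0.72 ± 0.19), so that Col4a3 and Lamb1 in the module and these chains moved in opposite directions. The leucine-rich repeat proteins, of which the module holds Lrrc15, Lrrc55, Lrtm1, Lrrc39 and Lrrc14b, had 4 of 16 others lower and 5 higher, from Rtn4r at -1.87 ± 0.43 to Lrg1 at 2.58 ± 0.36. In oxygen sensing, beside Higd1a and Egln1, the prolyl hydroxylase Egln3 was lower (-0.66 ± 0.20) and Bnip3 higher (1.16 ± 0.16).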

How the data were processed

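RNA of 24 left ventricles was sequenced as single-end directional mRNA libraries. The authors trimmed reads with cutadapt 1.9.1, mapped them to mm10 with TopHat 2.1.0 and Bowtie 2.2.9, and deposited whole-number counts per UCSC transcript from htseq-count 0.6.0, without normalization. The counting mode, its strand setting and the transcript release are not given in the sources used here. In the present work, 1 blank line was dropped, and edgeR 4.0.16 in R 4.3.3 (filterByExpr, minimum 10 counts and 15 in total, TMM factors) fitted a quasi-likelihood model of time to all 24 samples, with Benjamini-Hochberg adjustment over 8940 transcripts and a threshold of 0.05. The SE is the log2 fold change divided by the root of F. The module, the 6 functional groups, the pathway lists, the markers and the rule for named members (the 4 strongest per group and all contraction, channel and pyruvate dehydrogenase members, others by role) were chosen with earlier results of these data known. Symbols came from the study's tables, positions from GENCODE M21, and sequences from RefSeq. Alternatives used DESeq2 1.42.0 and limma 3.58.1. Each library was 1 mouse, and no 2 libraries of a time were alike within counting error (84 pairs). Totals of 9887957 to 14091629 counts set the precision. Some members rested on about 10 counts per mouse or fewer at 24 h, among them Fat3 (1 to 7), Ptn (1 to 11) and Lrrc55 (4 to 10). The largest SEs at 24 h against 0 min were those of Fat3 (0.42) and Ptn (0.36).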

Additional observations from a re-analysis of the deposited data

Results flagged for a closer look

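A single mouse was set apart from the other 7 of its time by Dixon's test (the gap to the nearest mouse over the range, against its critical value) in 15 of the 129 sets examined, which were the group means and the named members at each time. Chance alone gives about 1 in 20 for independent sets of normally distributed values. These sets share mice and correlated members, so the 15 are not read as an excess over chance. Mouse 8 at 24 h was the distant one in 7 of the 15, each time as the highest: the mean log2 difference of the mitochondrial group was 0.0606 (next -0.36), C130080G10Rik was at 16.3 CPM (next 9.18), Cyp3a13 at 1.86 CPM (next 1.01), Dlat at 609 CPM (next 433), Higd1a at 5.91 CPM (next 3.51), Lrrc14b at 54.4 CPM (next 36.6) and Mhrt at 51.6 CPM (next 27.8). At the same time Raver2 was lowest in mouse 4, at 0.346 CPM (next 1.67). At 0 min, the mean of the other named proteins was lowest in mouse 5, at -0.39 (next -0.05), Adcy5 was highest in mouse 4, at 173 CPM (next 146), and Fat3 was highest in mouse 7, at 2.83 CPM (next 1.53). At 45 min, C130080G10Rik was lowest in mouse 6, at 7.40 CPM (next 12.3), Lmod2 was lowest in mouse 8, at 527 CPM (next 798), Fat3 was highest in mouse 1, at 2.48 CPM (next 1.46), and Kcnv2 was highest in mouse 2, at 28.7 CPM (next 20.9).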

How the results depend on the processing

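The count of members called lower at 24 h against 0 min was 57 and lay between 41 (no filter on low counts) and 66 (DESeq2) over the other scalings, filters, tools and sample sets, and that at 45 min was 0 under all of them. The lower calls over all transcripts were 188 of 27661 with no filter and 366 of 8940 in DESeq2. Against 45 min the count was 50, from 40 to 68, except with no filter, where 27661 transcripts were tested and 21 members were called. Leaving out 1 mouse at a time gave 53 to 72 members at 24 h against 0 min, 42 to 74 against 45 min and 0 at 45 min, with both upper values from leaving out mouse 8 of the 24 h group. The mean log2 difference of the members at 24 h stayed between -0.81 and -0.70 without 1 mouse. The replicate numbers did not pair the samples (correlation of same-numbered deviations -0.54 to 0.58, over 0.1 in 13 of 24 pairs, own number best in 3); with the number as a block the counts were 53, 0 and 38. Alternatives chosen after seeing the data gave 70 (without mouse 8 at 24 h and mouse 5 at 0 min), 66 (without mice 6, 7 and 8 at 45 min) and 70 (detected transcripts as a covariate) at 24 h against 0 min. Of 1008 refitted values for the 36 named members, 0 changed sign, 13 lost and 16 gained their call; Dlat lost it without 4 mice in turn and Tnni3k without 3, and Kcnd2 gained it without 11. Under RLE and upper quartile scaling the median of all transcripts at 24 h against 0 min moved to 0.01 and 0.02. Limits are the few counts of some members, the unknown strand setting and the choice of the module on these mice.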
